A study of Mus musculus with 60 samples.

Results

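Polycomb repressive complex 2 (PRC2) genes were examined in the hippocampus of wild-type (WT) and R6/1 mice. They comprise 10 genes of the 24508 in the RNA-seq table, taken by name: the catalytic subunits Ezh1 and Ezh2, the core subunits Eed and Suz12, the histone-binding subunits Rbbp4 and Rbbp7, and the accessory subunits Jarid2, Mtf2, Phf1 and Phf19. The R6/1 line models Huntington's disease by expressing exon 1 of human huntingtin, with an expanded CAG repeat, from a transgene under the human promoter. Animals of both genotypes were 30 weeks old and of a mixed strain, 50% CBA and 50% C57BL/6. The RNA-seq data hold 9 independent biological replicates per genotype, from frozen hippocampal tissue. Lamin B1 ChIP-seq, which maps the chromatin that touches the nuclear lamina, was made from pools of 5 mice per replicate and is summarised in 1 list of domains per genotype.

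PRC2 places methyl groups on lysine 27 of histone H3, and the trimethylated form (H3K27me3) marks genes that are kept silent. Ezh2 is the main methyltransferase of dividing cells, while Ezh1 prevails in cells that have left the cell cycle, such as neurons. In the adult brain the complex is known for holding developmental regulators silent in mature neurons.

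Of the 10 genes, 9 were tested, since their RPKM (reads per kilobase, scaled for depth) averaged 0.5 or more over the 18 libraries; Phf19 did not reach this level. Phf1, Suz12, Rbbp4 and Eed rose in R6/1, by between 0.19 and 0.53 on the log2 scale, and 0 of the 9 fell. A gene was called at an adjusted p under 0.05 in limma's moderated test on log2(RPKM + 0.5), adjusted over all 14446 genes tested. By this rule 48.3% of all tested genes were called, 24.8% as higher and 23.5% as lower in R6/1, so that 4 called genes of 9 is a share near that of the whole table. The other 5 tested genes, among them both methyltransferases, did not pass. In bulk tissue, fewer cells of a type and less RNA per cell cannot be told apart.

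The promoters of the 4 genes that rose are shown because these were the PRC2 genes called between genotypes. Whether their promoters take part in the rise was not tested. Each line gives the 250 bases before the RefSeq transcription start, from the RefSeq promoter table of build GRCm38.p6, 5′ to 3′ on the gene's strand. The same bases were found once on the gene's chromosome of build mm9, at chr17:27069822-27070071 (plus strand, Phf1), chr11:79806358-79806607 (plus strand, Suz12), chr4:129012615-129012864 (minus strand, Rbbp4) and chr7:97129487-97129736 (minus strand, Eed). Capitals mark, on either strand, the binding motif of Sp1-like factors known as the GC box, which reads GGGCGG, and the motif of the factor NF-Y, which reads CCAAT.
Phf1: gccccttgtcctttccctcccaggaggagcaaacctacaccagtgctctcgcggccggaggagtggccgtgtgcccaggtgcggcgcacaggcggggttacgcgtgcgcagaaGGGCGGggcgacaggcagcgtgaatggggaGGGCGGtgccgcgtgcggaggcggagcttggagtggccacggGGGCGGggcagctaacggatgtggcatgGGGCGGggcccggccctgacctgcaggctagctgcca
Suz12: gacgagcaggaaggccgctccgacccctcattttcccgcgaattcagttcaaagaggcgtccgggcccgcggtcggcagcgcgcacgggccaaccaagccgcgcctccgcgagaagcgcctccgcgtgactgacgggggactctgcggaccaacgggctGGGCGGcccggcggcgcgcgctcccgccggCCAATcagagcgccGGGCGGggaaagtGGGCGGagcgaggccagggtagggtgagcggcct
Rbbp4: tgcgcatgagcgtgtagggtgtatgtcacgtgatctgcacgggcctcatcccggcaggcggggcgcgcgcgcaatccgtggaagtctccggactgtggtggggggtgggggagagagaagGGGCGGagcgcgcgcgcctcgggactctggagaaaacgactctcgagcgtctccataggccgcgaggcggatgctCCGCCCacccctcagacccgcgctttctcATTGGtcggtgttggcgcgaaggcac
Eed: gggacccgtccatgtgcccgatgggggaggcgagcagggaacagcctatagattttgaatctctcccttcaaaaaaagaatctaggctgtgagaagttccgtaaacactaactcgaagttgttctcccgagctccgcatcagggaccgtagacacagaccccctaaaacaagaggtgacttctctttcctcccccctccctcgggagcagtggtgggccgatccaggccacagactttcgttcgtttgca

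The GGGCGG motif stood 4 times in the Phf1 window, 3 times in that of Suz12 and 2 times in that of Rbbp4, and CCAAT stood once each in those of Suz12 and Rbbp4. The Eed window held neither, and its GC content of 54.4% was below the 72.0% of Phf1, the 73.6% of Suz12 and the 67.6% of Rbbp4. Of the 12 promoter windows listed for the 10 genes, 8 held GGGCGG and 6 held CCAAT. Among all 32851 windows of this length, 32.7% held GGGCGG and 33.8% CCAAT. GC content ran from 46.8% to 76.4% in the 12 windows, and its median over all windows was 52.4%. The motif shares were not matched for GC content. The ETS motif CCGGAAG (6.91% of all windows), the palindromic motif of NRF1 (0.782%), the cAMP response element TGACGTCA (1.55%) and the E2F motifs TTTGGCGC (0.417%) and TTTCGCGC (0.256%), also searched on both strands, were in 0 of the 12. Matches of GGGCGG and CCAAT may share bases with one another.

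Levels of the catalytic subunits differed widely between the paralogs. Ezh1 in WT had a lowest level of 18.4, a median of 19.6 and a highest of 20.5 RPKM, against 16.8, 18.3 and 21.0 RPKM in R6/1. The R6/1 libraries were the more spread, with 6 of 9 below every WT library and replicate 6 above every WT library. The log2 fold change of Ezh1 was -0.08 (SE 0.04, 95% interval -0.17 to -0.0019), with a limma adjusted p of 0.0842; without R6/1 replicate 6 it was -0.11 and passed the test (limma adjusted p 0.0165). Scaling by the sum of reads in each library gave -0.01 for Ezh1 (limma adjusted p 0.795). Ezh2 was expressed at 1.00 to 1.84 RPKM in WT (median 1.52) and at 1.07 to 1.57 RPKM in R6/1 (median 1.42). The ranges of Ezh2 overlapped almost fully, and its log2 fold change of -0.05 had a 95% interval from -0.23 to 0.14 (limma adjusted p 0.694). These levels of Ezh2 rest on 34 to 70 reads per library, against 964 to 1385 reads for Ezh1. Within a library, Ezh1 exceeded Ezh2 between 10.0 and 20.5 times in WT and between 11.0 and 16.2 times in R6/1.

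The core subunits Suz12 and Eed rose. Suz12 is the zinc finger subunit on which the complex is built, and Eed binds trimethylated lysine 27 and through it stimulates the enzyme. Suz12 had a lowest level of 9.71, a median of 11.3 and a highest of 12.7 RPKM in WT, and 12.5, 13.6 and 14.6 RPKM in R6/1. All R6/1 libraries but replicate 1 were above every WT library, and the highest WT library was replicate 1. The mean of Suz12 moved from 11.2 ± 0.911 to 13.6 ± 0.712 RPKM (SD, n = 9 each), or 0.27 on the log2 scale (SE 0.046; limma adjusted p 7.12e-05). Eed ranged from 4.65 to 5.94 RPKM in WT (median 5.52) and from 4.96 to 7.04 RPKM in R6/1 (median 6.64). Of the R6/1 libraries, 6 were above every WT library, and replicates 1, 2 and 6 lay inside the WT range. For Eed the means were 5.46 ± 0.462 and 6.31 ± 0.692 RPKM (SD, n = 9 each), 0.19 apart on the log2 scale (SE 0.064; limma adjusted p 0.0188). The ratio of Suz12 to Eed within a library had a median of 2.05 in WT and 2.13 in R6/1, with overlapping ranges. That of Suz12 to Ezh1 did not overlap between genotypes, though narrowly, lying between 0.494 and 0.645 in WT and between 0.646 and 0.821 in R6/1. Each ratio found here without overlap sets a called gene against a gene that was not called. The share of all gene pairs without overlap was not determined.

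**Figure D1:**
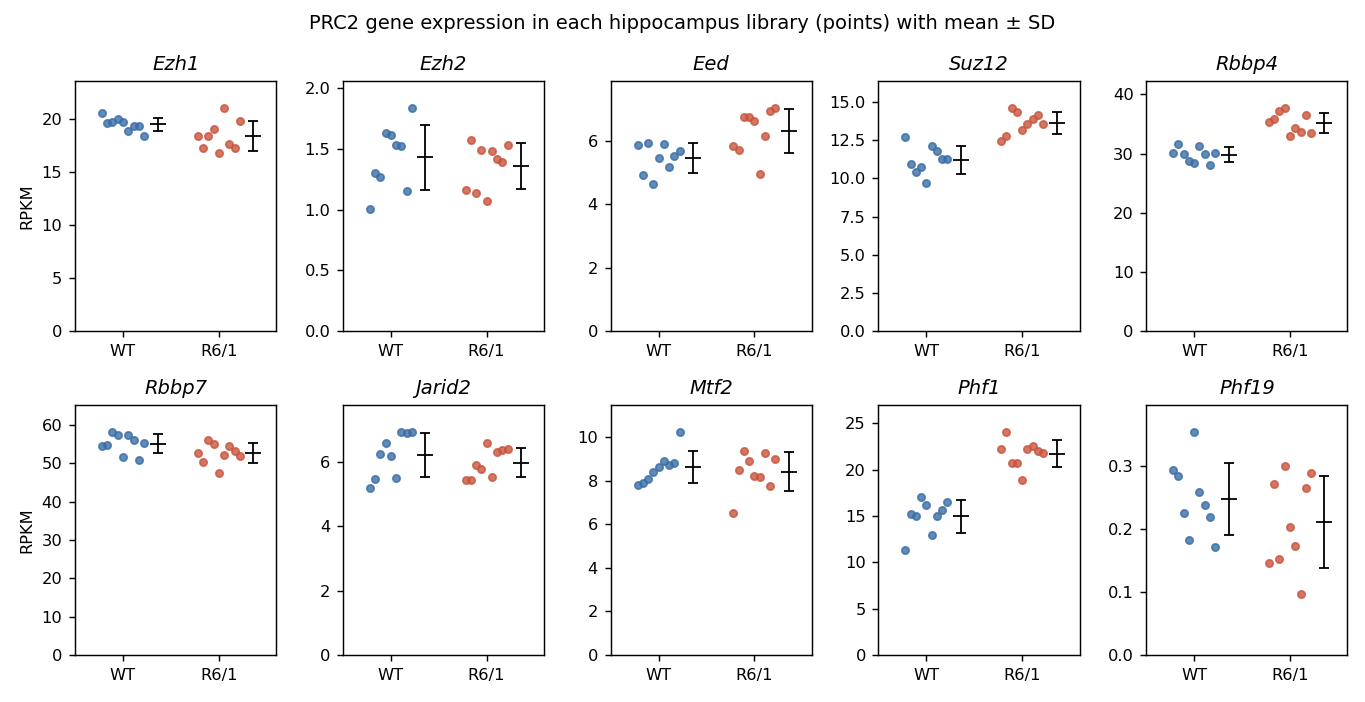
Level of each of the 10 PRC2 genes in RPKM (vertical axes, each from 0) in the 9 WT and 9 R6/1 libraries; points are libraries and black marks the mean ± SD. The R6/1 points of Rbbp4 and Phf1 lie above all WT points, while those of the other 8 genes overlap the WT points.

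Rbbp4 and Rbbp7 encode WD-repeat proteins that hold histone H3 and H4 and serve PRC2 as well as histone deacetylase and chromatin assembly complexes. Rbbp4 was expressed at 28.1 to 31.7 RPKM in WT (median 30.0) and at 32.9 to 37.7 RPKM in R6/1 (median 35.3). No R6/1 library overlapped a WT library. The mean of Rbbp4 moved from 29.8 ± 1.23 to 35.2 ± 1.73 RPKM (SD, n = 9 each), or 0.23 on the log2 scale (SE 0.034; limma adjusted p 1.06e-05). Rbbp7, the most abundant of the 10, ranged from 50.9 to 58.3 RPKM in WT (median 55.5) and from 47.5 to 56.1 RPKM in R6/1 (median 52.6). Its ranges overlapped, and the log2 fold change of -0.07 (95% interval -0.14 to 0.0060) did not pass (limma adjusted p 0.121). The ratio of Rbbp7 to Rbbp4 within a library, which no scaling of the library can change, lay between 1.73 and 2.00 in WT and between 1.41 and 1.62 in R6/1, with no overlap. The coding transcripts of these paralogs share no stretch of 50 bases (0 of the 2195 such stretches in Rbbp7), but a sequence elsewhere on the X chromosome matched 1743 bases of Rbbp7 at 96.5%, so that some reads of Rbbp7 are uncertain.

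Accessory subunits bring the complex to its targets in alternative forms. Phf1, Mtf2 and Phf19 are the Polycomb-like proteins, which bind methylated lysine 36 and CpG-rich DNA, and Jarid2 belongs to a form without them. Phf1 had a lowest level of 11.3, a median of 15.2 and a highest of 17.0 RPKM in WT, and 18.9, 22.03 and 24.1 RPKM in R6/1. All 9 R6/1 libraries were above all 9 WT libraries, and WT replicate 1 was the lowest. The mean of Phf1 moved from 15.0 ± 1.79 to 21.7 ± 1.45 RPKM (SD, n = 9 each), a 1.45-fold rise, 0.53 on the log2 scale (SE 0.064; limma adjusted p 1.25e-06). An absolute log2 fold change at least this large was found in 7.76% of all tested genes. In the authors' deposited table the log2 fold change of Phf1 is likewise 0.53, with an adjusted p of 1.81e-14; that table has the same 4 PRC2 genes as higher, and 20.0% of the 18395 genes with an adjusted p.

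The other accessory subunits did not pass the test. Mtf2 ranged from 7.82 to 10.3 RPKM in WT (median 8.62) and from 6.502 to 9.36 RPKM in R6/1 (median 8.50). Both ends of its R6/1 range lie below those of WT, with 2 R6/1 libraries below every WT library, and the log2 fold change of Mtf2 was -0.04 (95% interval -0.17 to 0.09, limma adjusted p 0.666). Jarid2 ranged from 5.18 to 6.95 RPKM in WT (median 6.26) and from 5.43 to 6.60 RPKM in R6/1 (median 5.91). Its R6/1 range lies inside that of WT, with a log2 fold change of -0.05 (95% interval -0.18 to 0.08, limma adjusted p 0.532). Phf19 stood at 0.172 to 0.355 RPKM in WT (median 0.238) and 0.0971 to 0.301 RPKM in R6/1 (median 0.204), on 5 to 21 reads per library, and a difference was not detectable at this depth (limma adjusted p 0.383 in a fit without a filter on low values). Within the Polycomb-like proteins the ratio of Phf1 to Mtf2 lay between 1.45 and 2.03 in WT and between 2.22 and 3.42 in R6/1, with no overlap. Jarid2 over Phf1 moved the other way, from 0.360 to 0.463 in WT against 0.225 to 0.349 in R6/1, again with no overlap.

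**Figure D2:**
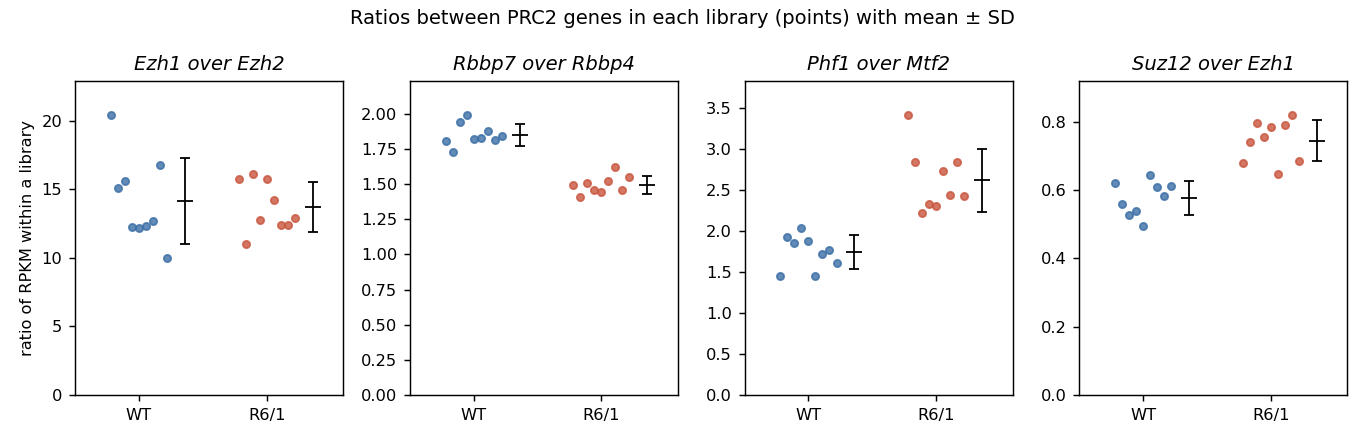
Ratios of RPKM between PRC2 genes within each library (vertical axes, each from 0), with libraries as points and the mean ± SD in black. Rbbp7 over Rbbp4, Phf1 over Mtf2 and Suz12 over Ezh1 do not overlap between genotypes, while Ezh1 over Ezh2 does. The ratios without overlap each set a called gene against a gene not called.

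Ordered by mean level in WT, the 10 genes were Rbbp7, Rbbp4, Ezh1, Phf1, Suz12, Mtf2, Jarid2, Eed, Ezh2 and Phf19. Most neighbours in this order kept it in every library of both genotypes. Ezh1 was above Phf1 in 9 of 9 WT libraries and in 0 of 9 R6/1 libraries. Phf1 was above Suz12 in 8 of 9 WT and 9 of 9 R6/1 libraries. Jarid2 and Eed did not differ beyond their spread, with Jarid2 the higher in 7 of 9 WT and 2 of 9 R6/1 libraries. Libraries of the same genotype varied least in Ezh1 in WT (coefficient of variation 3.19%) and most in Phf19 in R6/1 (34.7%).

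The calls were compared across scalings. When libraries were instead divided by their summed reads, the median change over the 14446 genes went from 0.0036 to 0.07 on the log2 scale, and 5110 genes (35.4%) were called higher and 2526 lower, in place of 3586 and 3394. Phf1, Suz12, Rbbp4 and Eed were higher and past the threshold under this scaling and under quantile normalization, with log2 fold changes of 0.60, 0.34, 0.31 and 0.26 under the former. The signs of Ezh2, Rbbp7, Jarid2 and Mtf2 turned under scaling by summed reads, and that of Ezh2 also under quantile normalization, so no direction is given for them. No overlap between genotypes was seen for 2 of the 10 genes as deposited, where Phf19 is among the 10 though not tested. Among all tested genes as deposited, 11.9% had no overlap, and 5.5% had none and were higher in R6/1. Under scaling by summed reads 3 of the 10 genes had no overlap. The share of all genes under that scaling was not determined, so the 3 cannot be set against these shares.

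**Figure D3:**
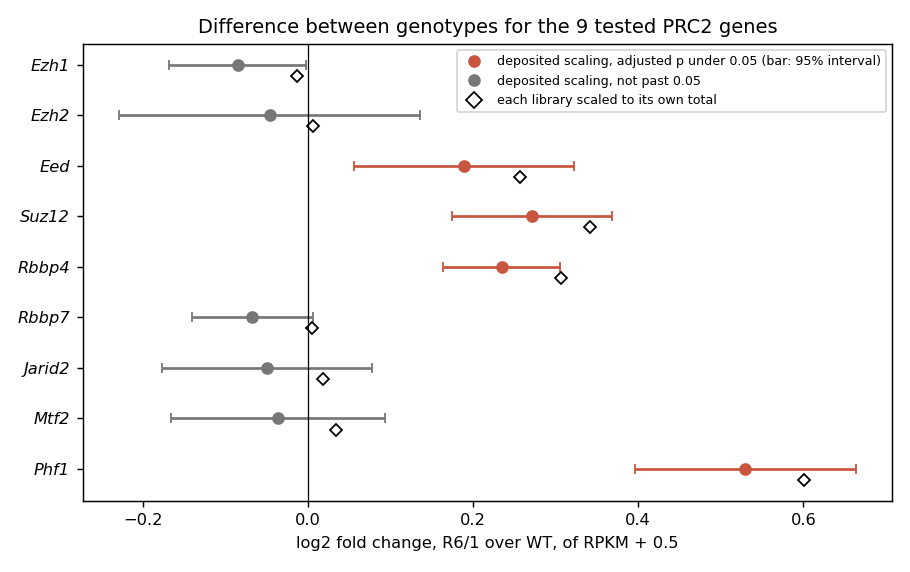
Log2 fold change of RPKM + 0.5 between R6/1 and WT (horizontal axis) for the 9 tested PRC2 genes, with the 95% interval as a bar and the value after scaling by summed reads as a diamond. The 4 intervals in red (Eed, Suz12, Rbbp4 and Phf1) lie above 0; the diamonds sit to the right of the points by about the shift of all genes.

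Total reads on genes lay between 12299434 and 16457022 per WT library and between 13260311 and 16736544 per R6/1 library. No marker of hippocampal cell types was at 0 in all 18 libraries, and many were lower in R6/1. Among all tested genes 23.5% were called lower and 24.8% higher. The 6 dentate granule neuron markers were all called lower, and their summed level was at least 40.5 RPKM in every WT library and at most 25.4 RPKM in every R6/1 library. Of the CA1 markers 5 of 6 were lower and 1 was higher (summed 162 to 230 RPKM in WT, 124 to 141 RPKM in R6/1). Lower were also 6 of 7 inhibitory neuron markers (387 to 484 against 232 to 297 RPKM), 6 of 7 astrocyte markers (1083 to 1417 against 858 to 1101 RPKM) and 4 of 7 oligodendrocyte markers (974 to 1241 against 597 to 1032 RPKM). The same held for 3 of 5 CA3 markers, 3 of 8 microglia and 2 of 5 tested immature neuron markers, with none higher. Only 1 of 4 oligodendrocyte precursor and 1 of 6 endothelial markers were lower, again with none higher. These last shares (25.0% and 16.7%) were near or under that of all tested genes. Of the genes of dividing cells, where Ezh2 is known to be high, 8 of 10 were under the filter on low values. The summed level of the 10 was 3.91 to 5.03 RPKM in WT and 4.14 to 4.75 RPKM in R6/1, but single genes moved apart. Mcm5, a replication helicase gene, rose from 1.29 ± 0.252 to 1.78 ± 0.14 RPKM (SD, n = 9 each; limma adjusted p 0.000821). In the fit without a filter, the proliferation marker Mki67 was lower at 0.292 ± 0.0563 against 0.105 ± 0.0329 RPKM (limma adjusted p 1.44e-06), and Top2a at 0.236 ± 0.0737 against 0.0403 ± 0.0187 RPKM (limma adjusted p 1.48e-06; SD, n = 9 each), both with no overlap between genotypes. Ccna2 (0.621 ± 0.14 against 0.328 ± 0.0838 RPKM, limma adjusted p 0.000188) and Cdk1 (0.121 ± 0.0452 against 0.0634 ± 0.0374 RPKM, limma adjusted p 0.0263; SD, n = 9 each) were also lower, on at most 33 reads per library. In the fit without a filter, 3652 of all 20791 genes were called higher and 3671 lower. Mki67, Top2a, Ccna2 and Cdk1 were named after their values were seen. Ccnb1, Birc5, Aurkb, Bub1 and Mcm2, also on this list, are not described singly. The voom fit on recovered reads called 1 of the 10 higher and 3 lower, beside 3654 higher and 3543 lower of all 14835 genes in that fit. The part of these markers in the differences of the PRC2 genes was not tested. Choroid plexus content varied most, with summed markers between 25.4 and 1072 RPKM in WT and between 38.1 and 1741 RPKM in R6/1, and 0 of its 6 markers were called. With Ttr, the most abundant of them, as a covariate, the same 4 PRC2 genes passed (log2 fold changes of 0.55 for Phf1, 0.27 for Suz12, 0.22 for Rbbp4 and 0.18 for Eed).

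The annotated genes were placed on build mm9, and the starts were compared with the lamin B1 domains. Phf1 (chromosome 17, 27070072 to 27074835, plus strand), Suz12 (chromosome 11, 79806608 to 79847625, plus strand), Rbbp4 (chromosome 4, 128984344 to 129012614, minus strand) and Ezh1 (chromosome 11, 101052429 to 101087777, minus strand) started outside every domain of both lists. Outside every domain as well were the starts of Ezh2 (chromosome 6, 47480273 to 47545340), Rbbp7 (chromosome X, 159198334 to 159217024), Jarid2 (chromosome 13, 44824843 to 45017012), Mtf2 (chromosome 5, 108494693 to 108538023) and Phf19 (chromosome 2, 34749277 to 34769546). Eed (chromosome 7, 97103166 to 97129493, minus strand) was the only one with its start in a WT domain, 1 of 10 genes against 13.0% of 12827 tested genes matched by name, and 0 of 10 started in an R6/1 domain (7.99% of tested genes).

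The WT domain that holds Eed spanned chromosome 7 from 91945001 to 103156000, 11.2 Mb, and ranked 53 of 145 by the authors' score. The R6/1 list has 2 domains there, with Eed in the stretch between them, 2076 kb from the nearer and 3141 kb from the farther. With 1 list per genotype this difference has no replicate check. Of the 24 tested genes that start in this WT domain, 5 were called higher in R6/1, Eed among them, and 9 lower, and their median log2 difference was -0.15. Genome-wide, 171 of 692 tested genes in a WT domain and no R6/1 domain were higher and 137 lower, beside 3275 and 3032 of all 12827. The higher genes nearest to Eed were Picalm (log2 fold change 0.16), a clathrin assembly protein gene, Tmem126a (0.19) and Tmem126b (0.19). The lower genes nearest to Eed were Prss23 (-0.75), Dlg2 (-0.24) and Tmem135 (-0.15), and Prss23 starts nearer to Eed than Tmem126a does. All of these genes other than Eed were named after their values were seen. Called genes close to Eed thus moved in both directions.

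**Figure D4:**
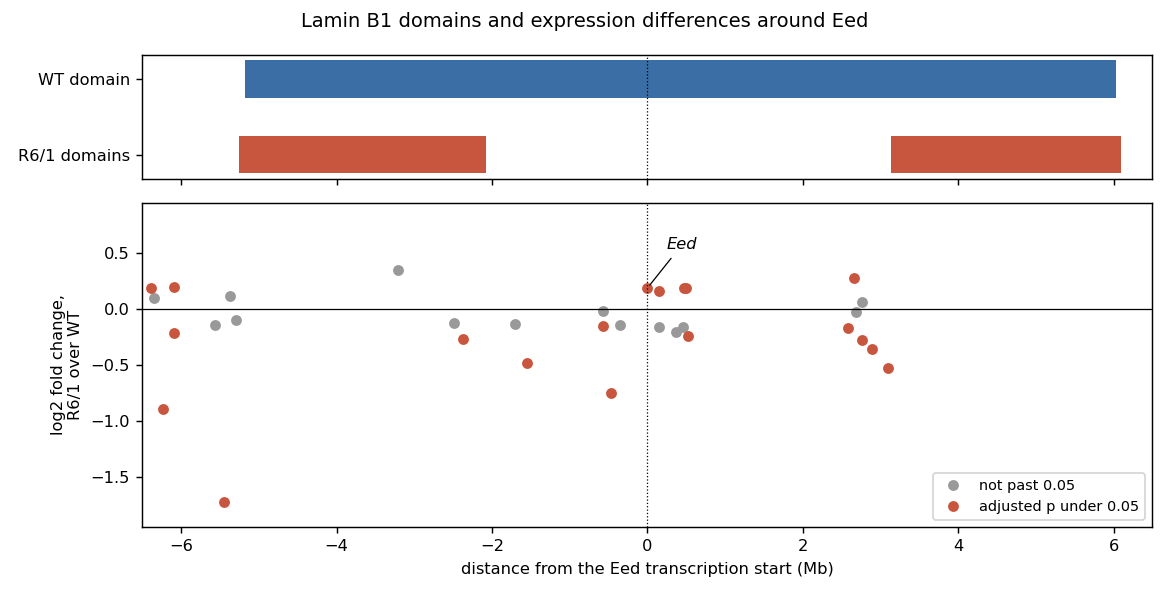
Lamin B1 domains of each genotype (upper panel) and log2 fold change of the tested genes (lower panel) by distance in Mb from the transcription start of Eed. A single WT domain covers Eed, the R6/1 domains leave it in a gap, and genes inside the gap lie on both sides of 0.

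Whether neighbouring genes or copies share reads was also checked. Suz12 overlaps Gm16706 on the opposite strand over 178 exonic bases, and Rbbp4 overlaps Sync over 782 and Gm17525 over 796; the library kit marks strand, but whether the counting used it is not given in the sources used here, so reads there are not separable with certainty. The same limit holds for Mtf2, which overlaps Tmed5 on the opposite strand over 395 exonic bases. It also holds for Rbbp7, which overlaps Txlng over 174, and Ezh2, which overlaps Gm17629 over 174. Phf1, Eed and Ezh1 overlap no annotated gene. A sequence on chromosome 13 matched 683 of 4373 bases of Suz12 at 96.4%.

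Of 4 other tested parts of PRC2, 2 fell and 0 rose, beside 23.5% of all tested genes called lower and 24.8% higher. Epop, a partner of the Polycomb-like form that ties it to elongin, had a lowest level of 10.9, a median of 15.4 and a highest of 20.8 RPKM in WT, and 2.66, 4.54 and 6.28 RPKM in R6/1. No R6/1 library reached a WT library. The mean of Epop moved from 15.0 ± 3.34 to 4.70 ± 1.16 RPKM (SD, n = 9 each), which is -1.58 on the log2 scale (SE 0.14; limma adjusted p 1.83e-08). Lcorl, which encodes a PRC2-associated protein of the same form, fell from 2.39 ± 0.15 to 1.98 ± 0.277 RPKM (SD, n = 9 each), a log2 difference of -0.23 (limma adjusted p 0.00649). Aebp2, the partner of Jarid2, was at 9.10 ± 0.371 and 9.43 ± 0.477 RPKM (SD, n = 9 each; limma adjusted p 0.298), and Lcor at 1.45 ± 0.332 and 1.44 ± 0.253 RPKM (SD, n = 9 each; limma adjusted p 0.996). Ezhip, an inhibitor of the enzyme listed as AU022751, was at or under 0.189 RPKM in every library. Under scaling by summed reads, 2 of the 4 tested genes of this list were again lower and 1 was higher. That scaling called 35.4% of all tested genes higher.

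Genes that act against or beside PRC2 were counted next. For comparison, 24.8% of all tested genes were called higher and 23.5% lower. Among the H3K27 demethylases, Kdm6a (5.88 ± 0.407 against 6.13 ± 0.534 RPKM, limma adjusted p 0.406) and Kdm6b (6.92 ± 0.782 against 7.10 ± 0.533 RPKM, limma adjusted p 0.629; SD, n = 9 each) did not pass. Uty, the Y-linked relative of Kdm6a, rose from 3.87 ± 0.369 to 4.31 ± 0.348 RPKM (SD, n = 9 each), 0.14 on the log2 scale (limma adjusted p 0.0452). Of 17 tested genes of H3K4 and H3K36 methylation, the marks of the opposing trithorax system, 8 were higher and 0 lower. Their median log2 fold change was 0.13. The share called in either direction, 47.1%, was near the 48.3% of all tested genes. Kmt2d rose by 0.50 and Setd1b by 0.42 on the log2 scale, both H3K4 methyltransferase genes (limma adjusted p 1.56e-05 and 1.28e-05). In the PR-DUB complex, which removes ubiquitin from histone H2A, the enzyme Bap1 fell (log2 fold change -0.23, limma adjusted p 2.06e-05) and Asxl1, its activator, rose (log2 fold change 0.30, limma adjusted p 1.14e-06), while Asxl2 (0.06) and Asxl3 (0.08) did not pass.

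Of the 19 PRC1 genes, whose complex binds H3K27me3 and ubiquitinates H2A, 10 were higher and 3 lower, with a median log2 fold change of 0.14. The chromodomain gene Cbx8 rose from 4.48 ± 0.43 to 8.19 ± 0.871 RPKM (SD, n = 9 each), 0.80 on the log2 scale (limma adjusted p 3.17e-09), with no overlap between genotypes. Of 18 tested genes of other complexes that hold Rbbp4 or Rbbp7 (deacetylase, NuRD, Sin3 and chromatin assembly complexes), 10 were higher and 0 lower, with a median of 0.12. Sap30, a Sin3 subunit, rose by 0.42 and Mta3, a NuRD subunit, by 0.40 on the log2 scale (limma adjusted p 0.00336 and 5.52e-07). Among all tested genes 24.8% were called higher and 23.5% lower. The median was 0.0036 over all tested genes and -0.04 over the 9 tested PRC2 genes. Scaling by summed reads gave 12 higher of the 17, 13 higher and 2 lower of the 19, and 15 higher of the 18. That scaling moved the median of all tested genes to 0.07 and called 35.4% of them higher.

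**Figure D5:**
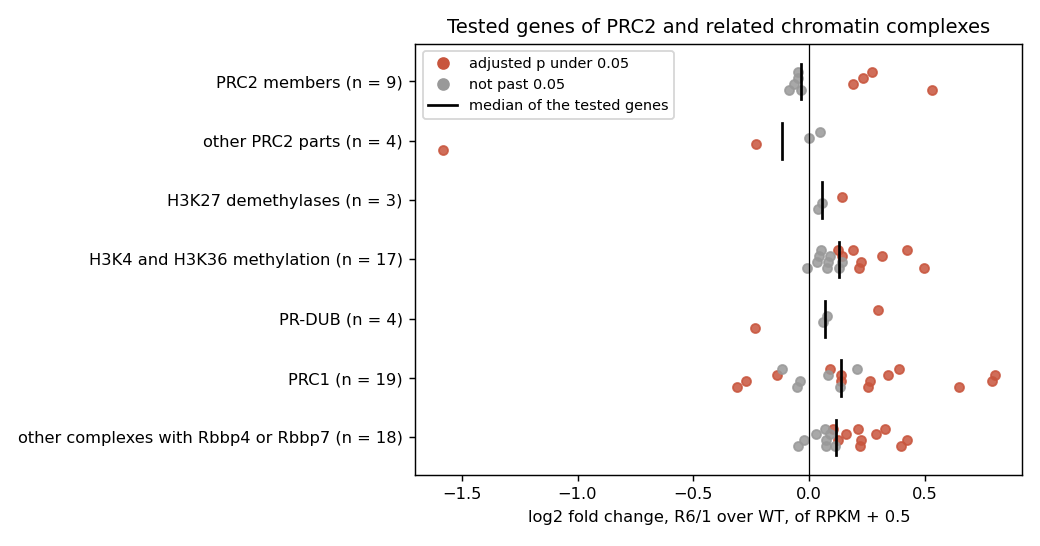
Log2 fold change of RPKM + 0.5 between R6/1 and WT (horizontal axis) for the tested genes of PRC2 and 6 related lists, red where the limma adjusted p is under 0.05, with a black line at each median. Epop is the far left point at -1.58, and Phf1 the far right PRC2 gene at 0.53.

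Developmental regulators known as PRC2 targets were mostly silent in both genotypes. Of 71 such genes, 40 stayed below 0.5 RPKM in every library, 7 of them at 0 in all, and 13 passed the filter, 6 of them through 1 genotype only. Genes of this kind had to differ, so their count supports no statement about the list, which was also written with earlier results of these data known. Among those tested, 9 were called higher and 1, Sox17, lower, beside 24.8% and 23.5% of all tested genes. Since the 6 are among those tested, the count cannot be weighed against these shares. Under scaling by summed reads and under quantile normalization, Sox17 was not called lower. Pax2, a transcription factor gene of early brain development, averaged 0.111 ± 0.0609 RPKM in the WT libraries against 7.03 ± 1.19 RPKM (SD, n = 9 each) with the transgene. Hoxa5, a positional identity gene, was listed at 0 in every WT library and had a lowest level of 0.891, a median of 1.92 and a highest of 3.10 RPKM in R6/1. Both passed the filter through R6/1 alone, so no test is given for them.

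The genes whose levels followed those of the methyltransferases most closely from library to library were sought after subtracting the mean of each genotype from log2(RPKM + 0.5). As a description over 18 libraries that share depth and tissue composition, these were 1700001L05Rik (Pearson r 0.850), Adamts14 (0.810) and Fyn (0.809) for Ezh1. For Ezh2 they were Glb1l (0.813), Serinc4 (0.811) and Ttc13 (0.804). Each is among the highest of a search through the 14446 tested genes other than the members. The r that unrelated genes reach in such a search was not determined. Ezh2 rests on 34 to 70 reads per library, and Serinc4 averaged 0.548 RPKM in WT and 0.471 RPKM in R6/1.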

How the data were processed

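Libraries were prepared with a strand-specific mRNA kit, per the labels' protocols. The authors deposited RPKM per gene. TopHat, Bowtie, DESeq2 and mm9 stand in the submitters' processing notes; versions, counter, annotation and strand setting are not given in the sources used here. A deposited comparison holds, per the file headers, the mean normalized count of each gene (a signal), log2 fold changes, a test statistic (used here as a score), p-values and adjusted p-values. Each lamin B1 domain has a score that the authors' caller, EDD, gave it. Reads per library were recovered from RPKM and the mean normalized counts, and 99.7% to 99.9% of values came out whole (tolerance 0.05).

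Genotypes were compared with limma 3.58.1 in R 4.3.3 (lmFit, eBayes with trend) on log2(RPKM + 0.5), two-sided. Genes averaging under 0.5 RPKM were left out, p-values were adjusted by Benjamini-Hochberg over all others, and the threshold was 0.05. Fold changes on this scale understate those of low genes. The procedure was tested on simulated data, and alternatives were tried for the pseudocount, filter, scaling, replicate block, covariates, weights, single libraries and voom on recovered reads (7197 genes called). Gene positions come from GENCODE on mm9, and near-copies from minimap2 (at least 200 bases and 95% identity). List symbols were matched by name, and Ezhip by a RefSeq synonym. Named genes are the PRC2 genes, the 2 called genes with the largest absolute change in each other list, all genes of lists of 5 or fewer, and the 3 nearest genes of Ezh1 and of Ezh2; for cell type markers counts and sums stand in their place, except genes of dividing cells, some of which were named after their values were seen. The values of 1 gene that this rule names are not reported here. The members and lists were chosen with earlier results of these data known. The labels give no batch. ATAC-seq was not analysed here, and 0 sample columns of the RPKM table were unused.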

Additional observations from a re-analysis of the deposited data

Results flagged for a closer look

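Each gene's 9 libraries of a genotype were examined for a library far from the others with Dixon's test, 20 groups in all, of which about 1 is found by chance. In 1 group a library stood apart: Mtf2 in WT replicate 9 was at 10.3 RPKM on 668 reads, above the next WT library at 8.88 RPKM. Leaving it out moved the log2 difference of Mtf2 from -0.04 to -0.0052 (limma adjusted p 0.953).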

How the results depend on the processing

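Phf1, Suz12, Rbbp4 and Eed were called higher in all 33 settings, the authors' deposited table among them, with an adjusted p of at most 5.25e-05 for Phf1, 0.000801 for Suz12, 0.000179 for Rbbp4 and 0.0399 for Eed. Leaving out 1 library gave between 4 and 5 called PRC2 genes and between 6665 and 7175 called genes in all. The fifth called gene was Ezh1 without R6/1 replicate 6. Between 2 and 3 PRC2 genes then had no overlap, and the share of all genes in these settings was not determined. Scaling by summed reads turned the log2 differences of Ezh2 (0.0068), Rbbp7 (0.0053), Jarid2 (0.018) and Mtf2 (0.034), and quantile normalization that of Ezh2 (0.011). Leaving out 1 library moved Mtf2 between -0.055 and 0.0070, the latter without R6/1 replicate 1. None of these turned values passed the test, and the cause was not tested. No clear pairing by replicate number was seen, which does not show that none existed. Deviations of same-numbered libraries correlated between -0.05 and 0.24, and 2 of 9 matched their own number best. With the replicate number as a block, 7133 genes were called in all and 4 PRC2 genes, the same 4. The count of PRC2 genes starting in a domain was 1 for WT and 0 for R6/1 under each of the 3 other definitions tried. Ezh2 and Phf19 rest on the fewest reads of the 10 genes.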
